A study of Arabidopsis thaliana with 6 samples.

Results

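The genes described are 48 members of the Arabidopsis thaliana cell cycle and DNA replication machinery, taken by locus code from a table of 27827 probe sets, each carrying 1 locus code. All 48 codes were present. They were picked by gene function, with earlier results of these data known: 13 S phase genes, 6 G1 genes, 5 regulators of the G1 to S step, 16 G2 and M phase genes and 8 inhibitors of cyclin-dependent kinases (CDKs). Transcript levels were measured on 6 arrays of total RNA from whole seedlings, 3 from wild-type Col-0 plants and 3 from naa20-1 plants. The study is about NatB, the complex that acetylates protein N-termini, and according to the series the mutant is depleted of its catalytic subunit. Both groups were 17 days old and untreated, grown on 1x MS under short days (8.5 h of light at 100 µE). The sources used here do not say what kind of lesion naa20-1 carries.

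Plant cells license replication origins in G1, when ORC, CDC6 and CDT1 load the ring of MCM2 to MCM7, the helicase that later unwinds DNA. D-type cyclins with CDKA;1 phosphorylate RBR1, the retinoblastoma protein, which releases E2F/DP factors to switch on S phase genes. B-type CDKs with A- and B-type cyclins then drive mitosis. KRP and SIM/SMR proteins inhibit CDKs, and in growing leaves and roots they favour endoreduplication, in which cells copy DNA without dividing.

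Values are log2 expression after RMA, the authors' normalization, and differences are naa20-1 minus Col-0 on that scale. Errors are SD over 3 arrays, or the moderated standard error (SE) of the fit where named. P-values come from limma. They were adjusted by the Benjamini-Hochberg method over 27241 tested genes, and an adjusted p under 0.05 counts as a call. The labels do not say whether the 3 seedling samples per genotype grew as separate cultures. The p-values therefore measure the spread between these samples only, and that spread may be technical. The number of arrays limits the precision. A whole seedling mixes dividing with non-dividing cells, and fewer cells of a type cannot be told apart from less RNA per cell.

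The targeted gene NAA20 (AT1G03150) stood at 8.79, 8.75 and 8.72 on the Col-0 arrays and at 8.10, 7.60 and 7.36 on the naa20-1 arrays. It fell by 1.07 (SE 0.18, adjusted p = 0.0407), and the call was lost when any array other than naa20-1 replicate 1 was left out (adjusted p from 0.0770 to 0.135). With 1 array left out the difference ran from -1.28 to -0.91. Over all genes the calls as lower then fell from 209 to between 51 and 134. Correlations across probe sets were 0.993 to 0.995 between arrays of 1 genotype and 0.990 to 0.993 between genotypes. No array stood apart as a whole.

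Of the 13 S phase members 12 had a higher mean in naa20-1, while 10 of the 16 G2 and M phase members had a lower one. Over all tested genes 51.2% had a higher mean. No member passed the test over all genes: 0 of 48 were called in limma, where 1.15% of all tested genes were (0.382% higher, 0.767% lower). At an unadjusted p under 0.05, 11 members were higher and 1 was lower. Among all tested genes 14.2% reached that level, 7.02% as higher and 7.19% as lower. The 11 became 7 without naa20-1 replicate 3. The 1 became 0 without Col-0 replicate 1 or 2, 2 without Col-0 replicate 3 or naa20-1 replicate 1, and 4 without naa20-1 replicate 2. The genotypes did not overlap, with naa20-1 above in 13 members and below in 4, beside 21.0% of all tested genes without overlap in either direction. The 11 were 8 S phase genes, the cyclin gene CYCD3;3 and the inhibitor genes KRP3 and KRP4, and the lower one was the cytokinesis gene KNOLLE. The smallest adjusted p among the members was 0.139, for MCM6. Differences ran from -0.33 in CYCB1;4 to 0.41 in PCNA2, with a median of 0.08 beside 0.01 over all tested genes.

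**Figure D1:**
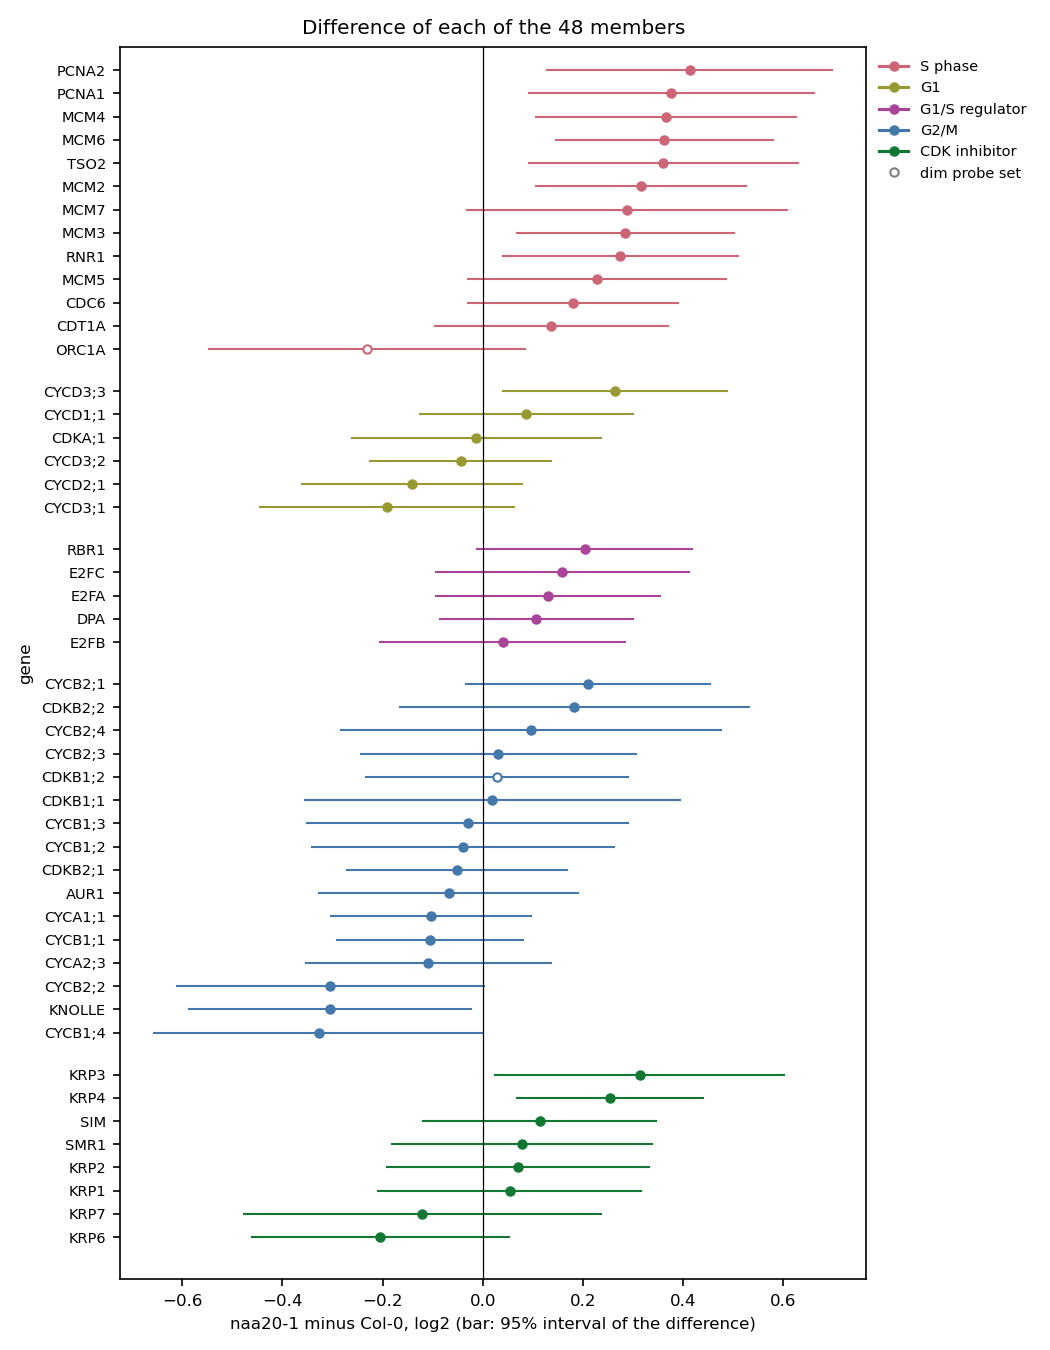
Difference of each of the 48 members (naa20-1 minus Col-0, log2, x axis) with its 95% interval from the limma fit, grouped and coloured by class (3 arrays per genotype). 8 of the 13 S phase intervals lie wholly above 0, while 15 of the 16 G2/M intervals include 0; open circles mark the dim probe sets of ORC1A and CDKB1;2.

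Licensing genes came first in the S phase group, and all 6 subunits of the MCM helicase had a higher mean in naa20-1. MCM6 (AT5G44635) read 7.34, 7.21 and 7.22 on the Col-0 arrays and 7.53, 7.59 and 7.74 on the naa20-1 arrays. Every naa20-1 value lay above every Col-0 value, and the difference was 0.36 (SE 0.09, adjusted p = 0.139), a 28.6% higher signal. MCM2 (AT1G44900), at 8.42, 8.36 and 8.33 in Col-0, read 8.69, 8.58 and 8.78 in naa20-1. Its groups were apart as well, by 0.32 (SE 0.09, adjusted p = 0.170). MCM4 (AT2G16440) went from 7.42, 7.49 and 7.25 to 7.61, 7.74 and 7.90, a difference of 0.36 (SE 0.11, adjusted p = 0.197). MCM3 (AT5G46280) read 8.25, 8.29 and 8.20 in Col-0 against 8.45, 8.48 and 8.66 in naa20-1 (difference 0.28, SE 0.09, adjusted p = 0.223). These 4 of the 6 subunits (66.7%) thus had no overlap between genotypes, with naa20-1 above, beside 10.6% of all tested genes.

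The other MCM subunits overlapped between genotypes. MCM5 (AT2G07690) averaged 8.11 ± 0.12 in Col-0 and 8.34 ± 0.15 in naa20-1, with 1 Col-0 array, at 8.25, above the lowest naa20-1 array, at 8.23. MCM7 (AT4G02060, also named PROLIFERA) was at 8.59 ± 0.23 and 8.87 ± 0.15, and its spread came from Col-0 replicate 3, at 8.33 where the other Col-0 arrays read 8.75 and 8.68. Over the 6 subunits the median difference was 0.30, with a range of 0.23 to 0.36.

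The factors that load the MCM ring showed smaller differences. CDC6 (AT2G29680), the loading ATPase, averaged 6.67 ± 0.04 in Col-0 and 6.85 ± 0.11 in naa20-1. Its groups did not overlap, but the 95% interval of the difference, -0.03 to 0.39, included 0. CDT1A (AT2G31270), its partner in loading, differed by 0.14 (95% interval -0.10 to 0.37) with overlapping groups. ORC1A (AT4G14700), a subunit of the origin recognition complex, was the 1 S phase member with a negative difference, -0.23 (95% interval -0.55 to 0.08). Its signal, 2.76 ± 0.17 against 2.53 ± 0.20, was dimmer than the 25th percentile of all values, 3.72, and may be background.

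The clamp genes PCNA2 and PCNA1 had the largest differences of all members. They encode the sliding clamp that tethers DNA polymerases. PCNA2 (AT2G29570) read 9.28, 9.26 and 9.20 in Col-0 and 9.50, 9.57 and 9.91 in naa20-1, a difference of 0.41 (SE 0.12, adjusted p = 0.186) or 33.1% more signal. PCNA1 (AT1G07370) read 8.61, 8.50 and 8.22 in Col-0 and 8.78, 8.75 and 8.93 in naa20-1, a difference of 0.38 (SE 0.12, adjusted p = 0.220). The genotypes were apart in both, but the clamp genes are close copies, so the signal of each may include the other's. Sharing of signal was not tested.

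RNR1 and TSO2 encode the large and a small subunit of ribonucleotide reductase, which makes deoxyribonucleotides. RNR1 (AT2G21790) read 9.85, 9.81 and 9.70 in Col-0 and 9.997, 9.98 and 10.22 in naa20-1 (difference 0.27, SE 0.10, adjusted p = 0.277). TSO2 (AT3G27060) read 6.99, 6.95 and 6.88 in Col-0 and 7.16, 7.22 and 7.53 in naa20-1 (difference 0.36, SE 0.11, adjusted p = 0.214). In both genes the lowest naa20-1 array lay above the highest Col-0 array.

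**Figure D2:**
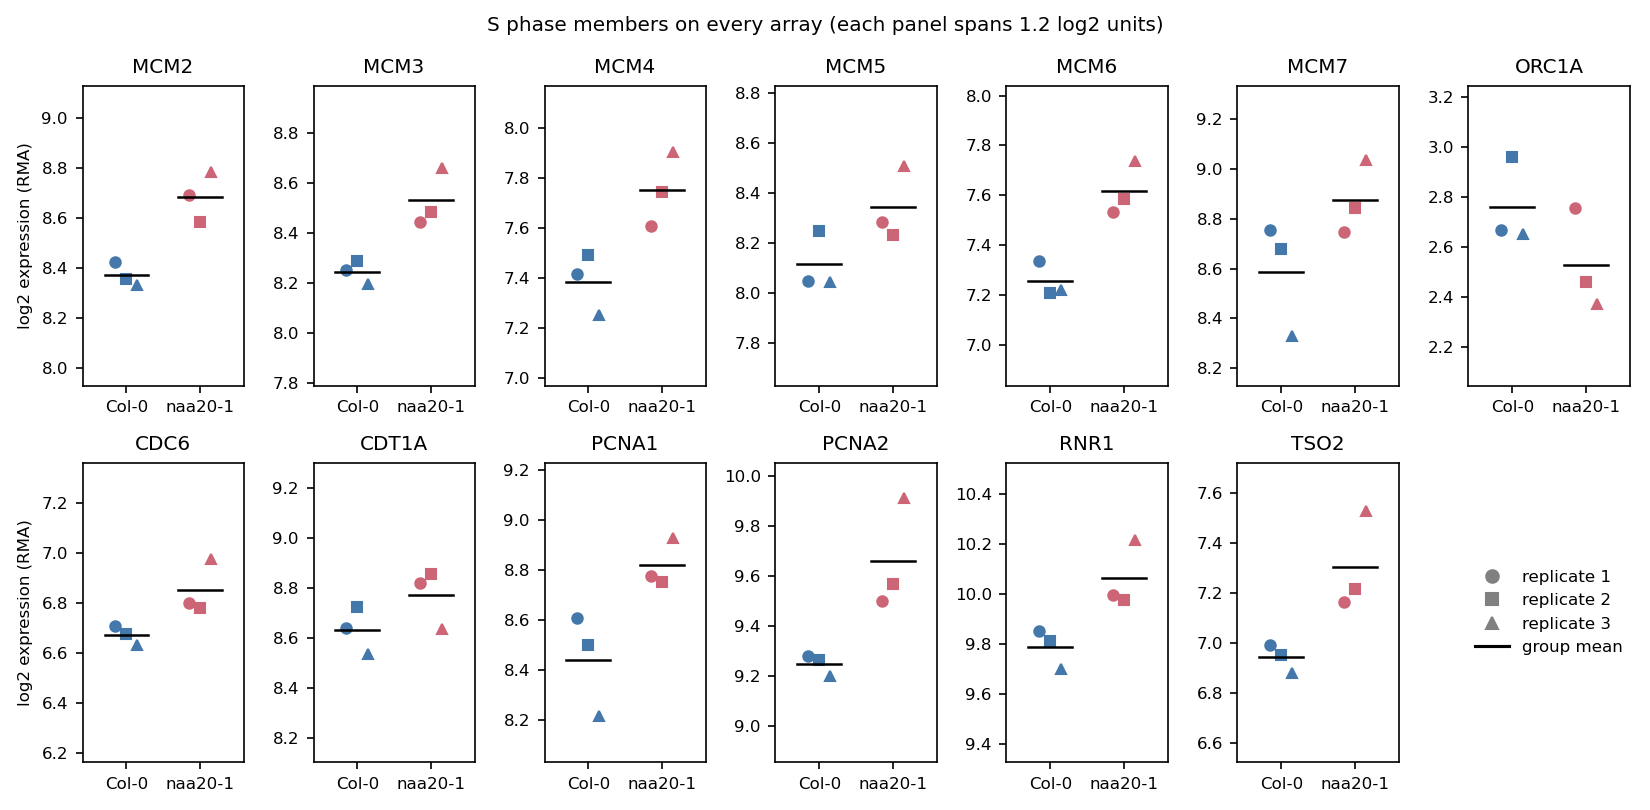
Log2 expression (y axis) of each of the 13 S phase members on the 3 Col-0 and 3 naa20-1 arrays; marker shapes give the replicate, black lines the group means, and each panel spans 1.2 log2 units. In 9 panels every naa20-1 point lies above every Col-0 point, and in 11 panels the highest naa20-1 point is replicate 3.

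Over the 13 S phase members, 12 differences were above 0, where 51.2% of all tested genes had one, and the median was 0.29. At an unadjusted p under 0.05, 8 members (61.5%) were higher, beside 7.02% of all tested genes, and 0 were lower. The genotypes were apart, with naa20-1 above, in 9 members (69.2%), beside 10.6% of all tested genes. Single arrays moved with the result. The array naa20-1 replicate 3 was the highest naa20-1 array for 11 members, and Col-0 replicate 3 was the lowest Col-0 array for 12. Without naa20-1 replicate 3 the median was 0.22 and 6 members were at an unadjusted p under 0.05. Without Col-0 replicate 3 these values were 0.26 and 6. The sign of each of the 13 differences was the same with any single array left out.

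The E2F/RBR switch that governs S phase genes showed small positive differences. All 5 regulators were above 0, with a median of 0.13 and 0 of 5 at an unadjusted p under 0.05. RBR1 (AT3G12280), the repressor that binds E2F, read 9.24, 9.13 and 9.13 in Col-0 and 9.30, 9.32 and 9.49 in naa20-1 (difference 0.20, SE 0.09, adjusted p = 0.380). Its naa20-1 values were all above those of Col-0. The activating factor E2FA (AT2G36010) differed by 0.13, with a 95% interval of -0.09 to 0.35. E2FB (AT5G22220), the other activator, differed by 0.04 (-0.21 to 0.28), and its sign turned when 1 array was left out. The repressor E2FC (AT1G47870) differed by 0.16 (-0.09 to 0.41), and the dimer partner gene DPA (AT5G02470) by 0.11 (-0.09 to 0.30). The intervals of these 4 genes span 0 and do not show that the levels were equal.

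The G1 members had no common direction, with 2 of 6 differences above 0 and a median of -0.03. CYCD3;3 (AT3G50070) was the highest. It encodes one of the D3 cyclins, which act with CDKA;1 and sustain divisions in young leaves. It read 6.69, 6.87 and 6.72 in Col-0 and 7.05, 6.91 and 7.10 in naa20-1 (difference 0.26, SE 0.10, adjusted p = 0.274). The groups were apart by 0.04 only. Its relatives went the other way or showed little: CYCD3;1 (AT4G34160), known to respond to cytokinin, averaged 10.07 ± 0.09 in Col-0 and 9.88 ± 0.16 in naa20-1, and CYCD3;2 (AT5G67260) at 8.74 ± 0.03 and 8.70 ± 0.02. CYCD2;1 (AT2G22490) had a difference of -0.14 (95% interval -0.36 to 0.08) and CYCD1;1 (AT1G70210) one of 0.09 (-0.13 to 0.30). CDKA;1 (AT3G48750), the central CDK of both G1 and G2, was at 9.28 ± 0.15 and 9.27 ± 0.10, a difference of -0.01 with a 95% interval of -0.26 to 0.24.

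Among the 16 G2 and M phase members 6 differences were above 0 and 10 below, with a median of -0.05. Over all tested genes 51.2% were above 0. The sign of 8 of the 16 differences changed when 1 array was left out. Of the 16 members 0 were higher at an unadjusted p under 0.05, and 1 was lower (6.25%, beside 7.19% of all tested genes). KNOLLE (AT1G08560), the syntaxin that fuses vesicles into the new cell plate at cytokinesis, read 6.80, 6.94 and 6.74 in Col-0 and 6.30, 6.66 and 6.62 in naa20-1. Every naa20-1 value lay under every Col-0 value, and the difference was -0.31 (SE 0.12, adjusted p = 0.313). AUR1 (AT4G32830), an Aurora kinase of the mitotic spindle, overlapped between genotypes (difference -0.07, 95% interval -0.33 to 0.19). The genotypes were apart, with naa20-1 below, in 2 of the 16 members (12.5%), beside 10.5% of all tested genes.

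B-type cyclins, which act at entry into mitosis, differed among themselves. CYCB1;4 (AT2G26760) read 7.02, 6.88 and 6.69 in Col-0 and 6.30, 6.76 and 6.55 in naa20-1 (difference -0.33, SE 0.14, adjusted p = 0.352). The 2 groups overlapped by 1 value each. CYCB2;2 (AT4G35620) was close to it, at 5.89 ± 0.14 in Col-0 and 5.59 ± 0.21 in naa20-1. CYCB1;1 (AT4G37490), widely used as a reporter of the G2 to M step, was at 5.81 ± 0.05 and 5.71 ± 0.03. Its groups were apart by 0.04, and the 95% interval of the difference ran from -0.29 to 0.08. CYCB2;1 (AT2G17620) had the largest positive difference of the class, 0.21 (95% interval -0.03 to 0.45), at a low level of 3.73 ± 0.17 in Col-0. The remaining members CYCB1;2, CYCB1;3, CYCB2;3 and CYCB2;4 had differences between -0.04 and 0.10 that changed sign when 1 array was left out.

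For the A-type cyclins and B-type CDKs the 95% intervals of the differences all included 0, and the genotypes overlapped. CYCA2;3 (AT1G15570), which with CDKB1;1 restrains endoreduplication, differed by -0.11 (95% interval -0.35 to 0.14). CYCA1;1 (AT1G44110) differed by -0.10 (SE 0.09, adjusted p = 0.652). CDKB2;2 (AT1G20930) had the smallest p of the B-type CDKs, at 6.03 ± 0.22 in Col-0 and 6.21 ± 0.21 in naa20-1 (adjusted p = 0.644). Its close copy CDKB2;1 (AT1G76540) differed by -0.05 and CDKB1;1 (AT3G54180) by 0.02, and both signs turned when 1 array was left out. CDKB1;2 (AT2G38620), at 2.30 ± 0.10 and 2.33 ± 0.17, was as dim as ORC1A and may be background.

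The CDK inhibitor genes were mixed, with 6 of 8 differences above 0 and a median of 0.07. KRP3 and KRP4 encode inhibitors that bind CDK and cyclin, and both were higher in naa20-1 at an unadjusted p under 0.05. KRP4 (AT2G32710) read 8.65, 8.62 and 8.70 in Col-0 and 8.95, 8.92 and 8.87 in naa20-1 (difference 0.25, SE 0.08, adjusted p = 0.207). The groups were apart by 0.17, beyond the SD of 0.04 in each. KRP3 (AT5G48820) read 6.25, 5.93 and 6.16 in Col-0 and 6.27, 6.43 and 6.59 in naa20-1 (difference 0.31, SE 0.12, adjusted p = 0.311), and its groups were apart by 0.02. KRP4 thus had the wider separation. KRP6 (AT3G19150) differed by -0.20 (95% interval -0.46 to 0.05) and KRP7 (AT1G49620) by -0.12 (-0.48 to 0.24), while KRP1 (AT2G23430) and KRP2 (AT3G50630) differed by 0.05 and 0.07. SIM (AT5G04470), which makes leaf hairs endoreduplicate, differed by 0.11 (SE 0.10, adjusted p = 0.670). SMR1 (AT3G10525), which does so in giant cells of the sepal epidermis, differed by 0.08 (95% interval -0.18 to 0.34).

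Set side by side, the classes differed in their medians: 0.29 for S phase, 0.13 for the G1/S regulators, 0.07 for the inhibitors, -0.03 for G1 and -0.05 for G2/M. No p is given for these lists, because the members were chosen with earlier results known. Array by array, the mean deviation of the S phase members from their Col-0 means was 0.21, 0.20 and 0.37 on naa20-1 replicates 1, 2 and 3. For the G2/M members it was -0.14, -0.02 and -0.0024 on the same arrays. All naa20-1 arrays were thus above all Col-0 arrays for S phase, where Col-0 ran from -0.10 to 0.06, while the G2/M means of the genotypes overlapped. The genotypes were also apart, with naa20-1 above, for 2 other classes. For the G1/S regulators naa20-1 ran from 0.079 to 0.187 and Col-0 from -0.057 to 0.065. For the inhibitors naa20-1 ran from 0.057 to 0.082 and Col-0 from -0.046 to 0.029. The gap between the S phase and G2/M means was 0.35, 0.22 and 0.37 on the naa20-1 arrays, and 0.02, 0.05 and -0.07 on the Col-0 arrays. The gap between S phase and inhibitor means was 0.14, 0.15 and 0.28 on the naa20-1 arrays. On the Col-0 arrays it was 0.02, 0.10 and -0.13, so the closest arrays of the genotypes stood at 0.10 and 0.14.

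**Figure D3:**
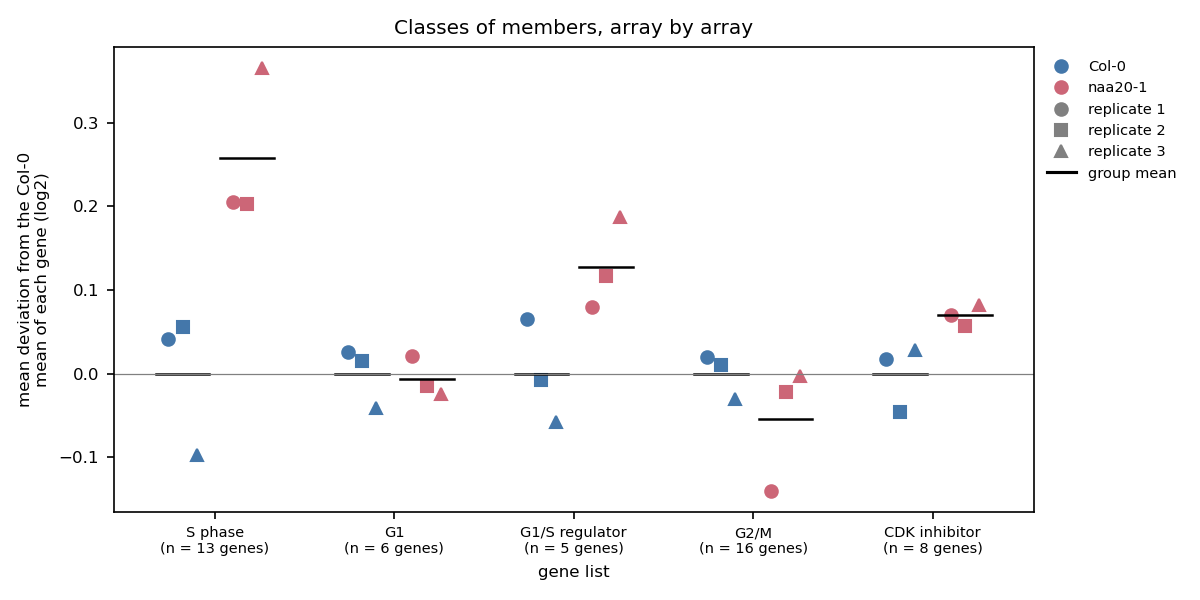
Mean deviation of the members of each class from their Col-0 means (log2, y axis) on every array, with marker shapes for replicates and black lines for group means. The S phase means of the naa20-1 arrays, 0.20 to 0.37, lie above those of the Col-0 arrays, -0.10 to 0.06. The G1/S regulator and inhibitor means of naa20-1 also lie above those of Col-0, by smaller gaps. The G1 and G2/M means of the genotypes overlap.

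A list of 54 further cell cycle genes was examined in the same classes and on the same 6 arrays. It too was chosen with earlier results of these data known, so its counts describe the list and are not a test. Of 17 further S phase genes, 16 differences were above 0 (94.1%, beside 51.2% of all tested genes) and the median was 0.27. With 1 array left out this median ran from 0.18 to 0.31. Replicate 3 was the highest naa20-1 array for 9 of these genes and the lowest Col-0 array for 11. In this group 7 genes (41.2%, beside 7.02% of all tested genes) were higher at an unadjusted p under 0.05 and 0 lower. Of these 17 genes 0 were called. ORC3 (AT5G16690), a subunit of the origin recognition complex, averaged 6.25 ± 0.18 in Col-0 and 6.77 ± 0.05 in naa20-1 (difference 0.51, SE 0.11, adjusted p = 0.0878). FAS1 (AT1G65470), a subunit of the chromatin assembly factor CAF-1 that places histones behind the fork, was at 7.51 ± 0.09 and 7.83 ± 0.02 (difference 0.32, SE 0.09, adjusted p = 0.160). Of 18 further G2 and M phase genes, 3 differences were above 0 (16.7%, beside 51.2% of all tested genes) and 15 below. Their median was -0.05, and it ran from -0.11 to 0.009 with 1 array left out. The class means of the genotypes overlapped. They deviated by -0.12, 0.009 and -0.076 on the naa20-1 arrays and by 0.007, 0.085 and -0.092 on the Col-0 arrays. At an unadjusted p under 0.05, 2 genes were lower (11.1%, beside 7.19% of all tested genes). They were the Aurora kinase gene AUR3 (AT2G45490), with a difference of -0.31 (SE 0.09, adjusted p = 0.188), and the cyclin gene CYCA2;2 (AT5G11300), with -0.22 (SE 0.09, adjusted p = 0.312).

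Of the 54 genes 1 passed the test, where 1.15% of all tested genes did (0.382% as higher). DEL3 (AT3G01330), an atypical E2F that binds DNA without a DP partner, read 6.53, 6.46 and 6.60 in Col-0 and 7.02, 6.97 and 7.01 in naa20-1. It rose by 0.47 (SE 0.08, adjusted p = 0.0494) with the groups apart. The call sat at the threshold: it was lost when any single array was left out (adjusted p from 0.102 to 0.172) and with all probe sets in the adjustment (0.0505). With 1 array left out the difference stayed between 0.44 and 0.51. Over all genes the calls as higher then fell from 104 to between 11 and 63. The related DEL1 (AT3G48160), known to repress endoreduplication, was at 6.36 ± 0.21 and 6.63 ± 0.08 (difference 0.27, SE 0.12, adjusted p = 0.367).

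Genes around the endocycle and checkpoints gave single larger values. WEE1 (AT1G02970), a kinase that restrains CDKs when replication is disturbed, read 4.37, 4.66 and 4.50 in Col-0 and 4.96, 5.22 and 5.10 in naa20-1. Its difference of 0.58 was the largest of the 54 (SE 0.11, adjusted p = 0.0652), with the groups apart. FZR2 (AT4G22910, also named CCS52A1), an activator of the anaphase-promoting complex that favours endoreduplication, was at 8.91 ± 0.06 and 8.69 ± 0.07 (difference -0.22, SE 0.09, adjusted p = 0.299). Among 4 further inhibitor genes SMR7 (AT3G27630) differed by -0.37 (SE 0.16, adjusted p = 0.344) and SMR5 (AT1G07500) by 0.24 (SE 0.14, adjusted p = 0.480). Both are known to be induced by DNA damage, and their differences had opposite signs. Of the 5 further D-type cyclin genes, CYCD7;1 (0.12, adjusted p = 0.728) and CYCD5;1 (-0.09, adjusted p = 0.770) had the smallest p.

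**Figure D4:**
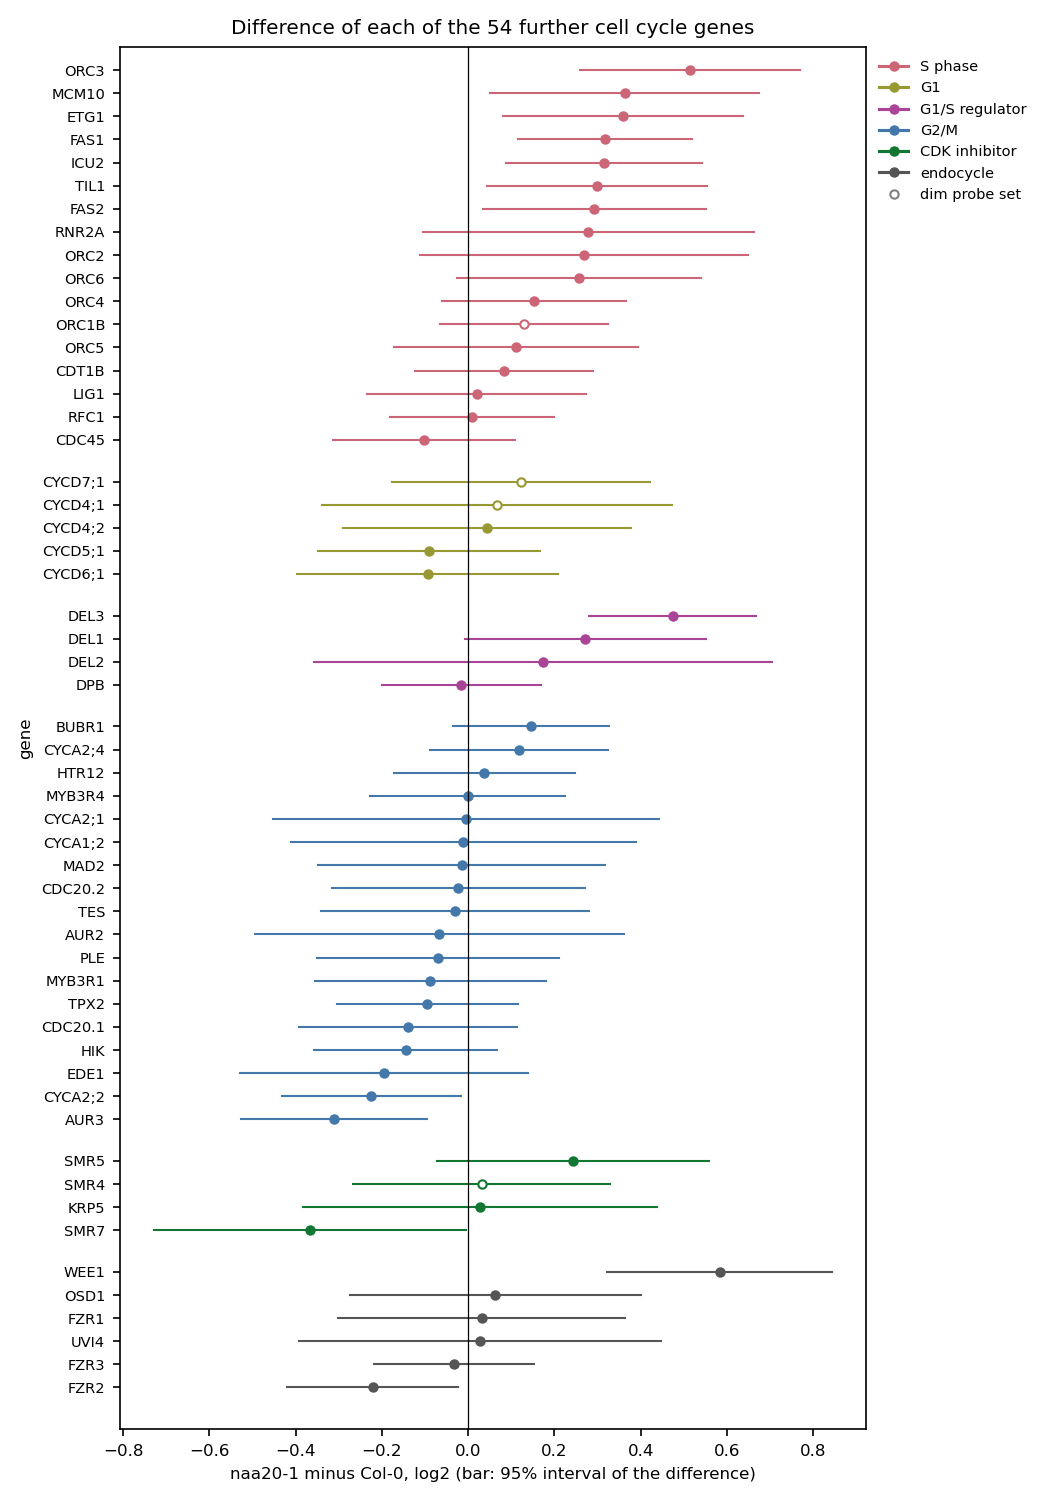
Difference of each of the 54 further cell cycle genes (naa20-1 minus Col-0, log2, x axis) with its 95% interval, grouped and coloured by class; open circles mark dim probe sets. The S phase block lies to the right of 0 in 16 of 17 genes and the G2/M block to the left in 15 of 18, and WEE1, at 0.58, has the largest difference. Over all tested genes 51.2% of differences were above 0. The G2/M median ran from -0.11 to 0.009 with 1 array left out.

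Markers of tissues that hold dividing cells, and of differentiated root and leaf mesophyll, were examined beside these lists. Of 7 markers of the shoot meristem and leaf primordium 2 had a positive difference, STM at 0.26 (adjusted p = 0.323) and KNAT1 at 0.26 (adjusted p = 0.284), both genes that maintain the meristem. The remaining 5 were below 0. CLV1 was the lowest of the list at -0.22, CLV3 was at -0.08 on a dim probe set, and AN3 was at -0.11. ANT and GRF5, which promote cell proliferation in young leaves, differed by -0.20 and -0.20. Of 5 root meristem markers 3 were above 0, and the mean of the list deviated by 0.05, 0.16 and 0.06 on the naa20-1 arrays and by -0.03, 0.06 and -0.04 on the Col-0 arrays. Of 6 markers of the stomatal lineage 4 were below 0, with FAMA, which ends divisions of guard mother cells, at -0.52 (SE 0.10, adjusted p = 0.0693). The 7 markers of the endodermis and differentiated root showed the largest shift of the 5 lists. All 7 were below 0, by a median of -0.59. All 7 were at an unadjusted p under 0.05 (beside 7.19% of all tested genes) and had the genotypes apart (beside 10.5%). The marker lists were chosen with earlier results of these data known, so these counts describe the list and are not a test. The 7 include the related genes CASP1 to CASP5. TIP2;3, which encodes an aquaporin, was nearest to a call at -0.69 (SE 0.12, adjusted p = 0.0500024). Leaf mesophyll markers had a median of -0.12. Among them RBCS1A read 14.18 on every array, at the 99.99th percentile of level. At this top rank quantile normalization may hide a difference. None of the 30 markers was called.

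Markers of the endodermis and differentiated root had a summed log2 level of 55.6 to 56.1 on the Col-0 arrays. On the naa20-1 arrays it was 50.3 to 52.9. For the shoot meristem markers the sums were 45.7 to 46.4 and 45.5 to 46.3, and for the root meristem markers 29.1 to 29.6 and 29.5 to 30.1. Stomatal lineage markers summed to 39.8 to 40.3 and 38.7 to 39.3, and leaf mesophyll markers to 60.8 to 61.3 and 60.3 to 60.6. CLV3, a defining gene of the shoot stem cells, read 2.43 ± 0.13 and 2.35 ± 0.06, also dimmer than the 25th percentile. The part of tissue composition in the S phase differences was not tested.

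**Figure D5:**
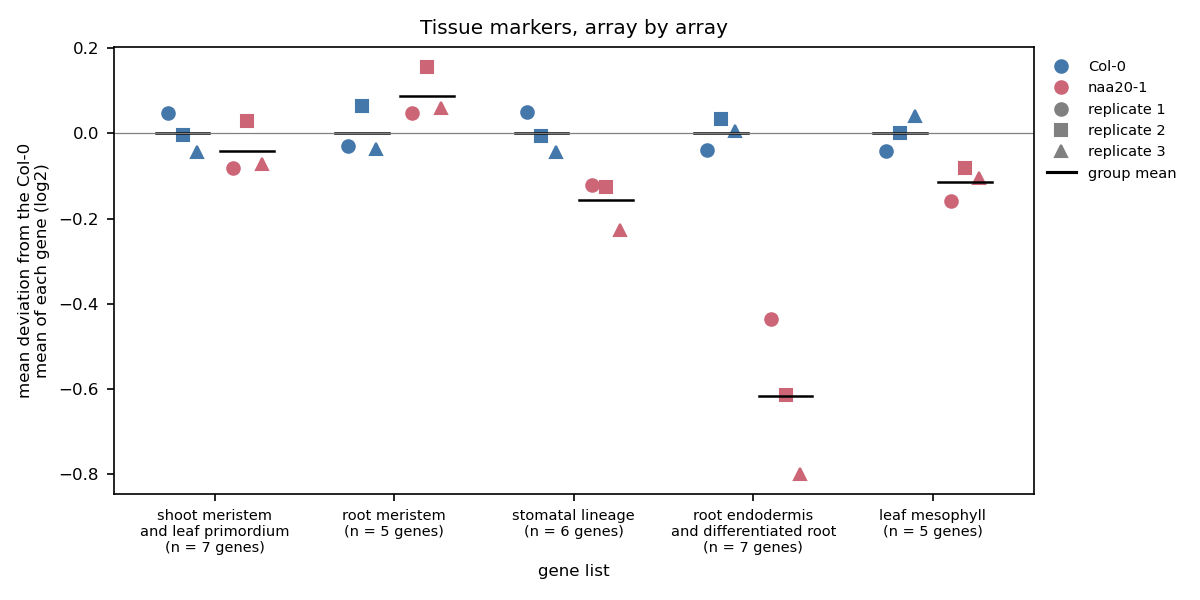
Mean deviation of the markers of 5 tissues from their Col-0 means (log2, y axis) on every array, with marker shapes for replicates and black lines for group means. Markers of the endodermis and differentiated root lie 0.44 to 0.80 below Col-0 on the naa20-1 arrays, while shoot meristem means of the genotypes overlap.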

How the data were processed

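The values are log2 expression levels that the authors obtained by RMA (named in the submitters' processing notes), as deposited: background correction, quantile normalization over the arrays and 1 value per probe set. Neither the array type nor the probe set definition is stated in the sources used here, and no detection calls come with the values. Quantile normalization hides a shift shared by most genes. Locus codes were matched to the RefSeq gene table of assembly TAIR10.1, which left 27241 of 27827 probe sets for testing. AT1G03150 was taken as NAA20 from general knowledge. The model, run with limma 3.58.1 (lmFit, eBayes) under R 4.3.3, had genotype as its only term and was checked on simulated data. The 95% intervals use the moderated standard errors.

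Members and lists were chosen with earlier results of these data known. Of 61 further cell cycle genes, 54 whose name the gene table also gives were kept. Full statistics go to NAA20, to members at an unadjusted p under 0.05, to the member with the smallest p in each role and to the 2 further genes with the smallest p in each class. Protein N-termini and promoters were not analysed here, and 1 gene of the DNA repair list is not reported here. The alternatives were a second quantile normalization, median centring, removal of the dimmest 40% of probe sets, a variance trend with robust fit, all probe sets, a block for replicate number, and each array left out.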

Additional observations from a re-analysis of the deposited data

How the results depend on the processing

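No member was called under any of the 12 alternatives. At an unadjusted p under 0.05, 11 members were higher in the main setting and 7 to 12 with 1 array left out, the lowest without naa20-1 replicate 3. The count of lower members was 1 in the main setting, 3 without the dimmest 40% of probe sets, 3 with a variance trend and robust fit, and 0 to 4 with 1 array left out. The median of the S phase members stayed between 0.22 and 0.34 with 1 array left out. The G1 median ran from -0.063 to 0.019, the inhibitor median from 0.057 to 0.12 over the same settings, and the G2/M median from -0.098 to -0.00054, the latter without Col-0 replicate 2. The G2/M median was -0.10 without the dimmest 40%. The further genes called higher were 1 in the main setting, 2 without the dimmest 40% (DEL3, and ORC3 at an adjusted p of 0.0475), 0 with all probe sets, and 0 with any array left out. Over all genes 104 were called higher and 209 lower, and 311 and 486 with a variance trend and robust fit; the cause was not tested.

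Replicate numbers are those of the sample titles; the sample descriptions number the naa20-1 samples differently. Whether the title numbers pair the samples is not settled by the values, because the correlations were weak. Deviations of same-numbered arrays correlated at 0.02, 0.06 and 0.01. Those of the other pairs across genotypes ran from -0.05 to 0.02, and 5 of 6 arrays correlated best with their own number. With the replicate block 8 members were higher and 1 lower at an unadjusted p under 0.05, and 0 further genes were called (DEL3 adjusted p = 0.127, NAA20 adjusted p = 0.0542). Dim probe sets, among them ORC1A and CDKB1;2, limit what can be said of those genes.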

Other observations

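Core histone and DNA repair genes, other genes tied to DNA replication, were listed after the members' values had been seen. Of 9 core histone genes 6 differences were above 0, with a median of 0.15. At an unadjusted p under 0.05, 1 was higher (11.1%, beside 7.02% of all tested genes) and 0 were called in limma. That gene was AT5G65360, an H3.1 histone gene, with 7.64 ± 0.11 for Col-0 and 7.92 ± 0.11 for naa20-1 (difference 0.28, SE 0.10, adjusted p = 0.267). The other 4 H3.1 genes differed by -0.03 to 0.15. These genes are close copies, so their signals may be shared, which was not tested.

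Of 13 genes of the DNA damage response and repair 7 differences were above 0, with a median of 0.03, and 0 were called in limma. At an unadjusted p under 0.05, 1 was higher (7.69%, beside 7.02% of all tested genes) and 2 were lower (15.4%, beside 7.19%). GMI1 (AT5G24280), a gene induced by DNA damage, read 4.26 ± 0.12 for Col-0 and 5.06 ± 0.63 for naa20-1 (difference 0.80, SE 0.28, adjusted p = 0.261), with naa20-1 replicate 1 at 5.79 and the other naa20-1 arrays at 4.70 and 4.69. PARP1 (AT2G31320), a poly(ADP-ribose) polymerase, was lower, at 7.05 ± 0.07 and 6.76 ± 0.05 (difference -0.29, SE 0.08, adjusted p = 0.172), and so was XRI1 (AT5G48720), at 7.78 ± 0.10 and 7.55 ± 0.04 (adjusted p = 0.300). The kinase genes ATM and ATR, which sense damage, differed by -0.05 (95% interval -0.24 to 0.15) and -0.02 (-0.39 to 0.35).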
